A study of Homo sapiens with 23 samples.

Results

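Very long protein-coding genes are the genes on which a change in initiation takes longest to reach the far end. The genes described here were chosen by annotated span and by mean raw count: all protein-coding genes of GENCODE release 44 that span at least 500 kb on hg38 and held a mean count of at least 100 over the 23 libraries, leaving out the genes whose symbols start with KCN and ERBB4. These were 242 of the 60605 genes in the count table. Of 323 protein-coding genes of this span, 74 fell below the count minimum and a further 5 were left out by name. The mean count is the measured value they were selected on, so it is given only as a description, and the changes after treatment played no part in the choice. The spans ran from 500.9 kb to 2473.5 kb with a median of 767.4 kb, and 68 members spanned at least 1 Mb. At the lower edge of the span stood ANO5 at 500.9 kb and PPFIA2 at 501.6 kb, with DIAPH3 at 498.3 kb and ITPR2 at 497.8 kb just outside. At the lower edge of the mean count stood THSD7B at 101.3 and SOX5 at 102.0, with TENM4 at 99.9 and CNTN4 at 99.6 just outside.

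The measurements are precision run-on sequencing (PRO-seq) counts, which report RNA polymerases engaged in transcription, from T47D cells, a luminal breast cancer line positive for the estrogen receptor. All 23 libraries came from clone 28, 1 clone whose own TRPS1 gene carries a degron tag, so treated and control cells share the tagged allele. Cells were given dTAG-13 and dTAG V-1 at 50 nM each, together called dTAG, for 0.5, 1, 2 or 4 h (4 libraries each) or 24 h (3 libraries, replicates 2 to 4), and the controls were given 0.1% DMSO by volume for 24 h (4 libraries). The question was how early a change on such genes can be seen after loss of TRPS1, set against the distance that polymerase can travel by that time.

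TRPS1 is a zinc-finger protein of the GATA family that represses transcription and is found with corepressor complexes. RNA polymerase II moves along a gene at a few kilobases per minute, so when more or fewer polymerases leave a promoter, the altered density spreads into the gene as a front and the count over the whole gene changes gradually. Loss of the protein itself is fast, and a gene that starts at several promoters or that carries internal start sites can change sooner than its full span would allow. Many of the longest human genes encode neuronal adhesion and signalling proteins or lie at common fragile sites, chromosome regions that break under replication stress.

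The promoters of 4 members on which the time course turns are shown from RefSeq (GRCh38.p14), each with 250 bases before and 50 bases after the start. DGKB and FRMD4A changed by 0.5 h, whereas KIAA1217 and AUTS2 changed later. They lie at chr7:14903607-14903906 (minus strand), chr10:14008501-14008800 (minus strand), chr10:23694477-23694776 (plus strand) and chr7:69598225-69598524 (plus strand). Capitals mark the GATA motif on either strand, which was searched as AGATAA or TGATAA or AGATAG or TGATAG and as the reverse complements of these, and overlapping matches would run together.
DGKB promoter: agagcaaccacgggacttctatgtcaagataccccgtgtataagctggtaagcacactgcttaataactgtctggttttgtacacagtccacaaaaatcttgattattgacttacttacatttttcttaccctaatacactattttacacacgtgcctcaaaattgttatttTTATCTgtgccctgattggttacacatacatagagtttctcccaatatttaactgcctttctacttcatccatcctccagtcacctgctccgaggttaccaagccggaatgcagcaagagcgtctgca
FRMD4A promoter: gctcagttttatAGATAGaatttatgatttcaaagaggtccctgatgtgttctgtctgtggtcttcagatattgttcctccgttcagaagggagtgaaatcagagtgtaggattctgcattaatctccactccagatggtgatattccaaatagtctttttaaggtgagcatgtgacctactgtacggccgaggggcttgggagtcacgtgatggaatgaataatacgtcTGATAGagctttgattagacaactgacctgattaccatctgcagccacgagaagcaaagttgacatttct
KIAA1217 promoter: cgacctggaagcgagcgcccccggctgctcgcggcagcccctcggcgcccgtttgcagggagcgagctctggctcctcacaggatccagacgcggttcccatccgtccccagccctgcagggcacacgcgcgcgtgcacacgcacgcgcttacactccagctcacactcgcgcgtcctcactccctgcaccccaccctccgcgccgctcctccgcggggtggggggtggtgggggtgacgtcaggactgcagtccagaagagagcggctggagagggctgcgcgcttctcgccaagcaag
AUTS2 promoter: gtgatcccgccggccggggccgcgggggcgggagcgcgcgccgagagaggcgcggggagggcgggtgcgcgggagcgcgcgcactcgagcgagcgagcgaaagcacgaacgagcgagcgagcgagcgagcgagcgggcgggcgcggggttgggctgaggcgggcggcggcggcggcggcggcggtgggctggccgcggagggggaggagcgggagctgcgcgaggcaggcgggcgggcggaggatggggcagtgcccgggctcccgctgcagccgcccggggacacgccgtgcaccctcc
DGKB held 1 match and FRMD4A held 2, and KIAA1217 and AUTS2 held none in these windows. ATP8A2, also called at 0.5 h, held none either, whereas DNM3, GSE1, STS and MECOM, with no call at 0.5 h, held 1 each. Whether a match goes with the time of change was not tested. At least 1 match stood in 24.97% of all 35116 promoters of the same length, in 49 of the 196 members found by symbol, and in 7 of the 21 members with a call below that were found. A match is a string of letters and was not tested as a binding site. The RefSeq start lay 453.6 kb downstream of the outermost GENCODE start for FRMD4A and 71.1 kb downstream for DGKB, but within 0.2 kb of it for KIAA1217 and AUTS2. For GSE1 and INPP4B, described below, the distances were 443.8 kb and 441.6 kb. For NAALADL2, MDGA2, ANKFN1 and ENOX1, also described below, they were 420.8, 332.4, 271.2 and 157.5 kb. For these genes the annotated span holds alternative starts, and travel from the RefSeq start would be shorter than the span.

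Library totals ran from 4408544 to 17571616 counts, and the members held 4.18% to 4.87% of them. The luminal markers were all present, with mean counts from 350.4 to 25549 for the 10 genes. Of the 5 basal markers, the keratins KRT5 and KRT14 averaged 0.826 and 1.65 counts, but TP63, ACTA2 and OXTR averaged 262.0, 93.6 and 40.5. The neuronal marker SYT1 averaged 1820.3 counts and the fibroblast marker COL1A1 127.4, while 3 of 5 neuronal and 4 of 5 fibroblast markers averaged under 50. Transcription of TRPS1 itself does not check the treatment, since dTAG acts on the protein, and it ranged from 7997 to 10157 CPM (counts scaled to library size with TMM factors) in DMSO and from 9757 to 11979 CPM at 24 h. Counting used strand: among members in the highest quartile of read density, genes nested on the same strand had a median of 0.677 of the density of their host, and genes nested on the opposite strand had a median of 0.0312. The canonical transcript covered at least 90% of the span in 173 members and under 50% in 29, and in 17 members an overlapping gene on the same strand held a count of at least 20% of the member's own.

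Few of the very long genes were called at any time. With edgeR's quasi-likelihood test, an adjusted p-value under 0.1 over all 26057 genes tested was reached by 3 members at 0.5 h (2 higher, 1 lower), where 0.476% of all genes were called (0.234% higher, 0.242% lower). At 1 h 7 members passed (5 higher, 2 lower), against 1.25% of all genes (0.514% higher, 0.733% lower). At 2 h 2 members passed, both higher, against 0.733% of all genes (0.43% higher, 0.303% lower). At 4 h 4 members passed (3 higher, 1 lower), against 0.833% of all genes (0.526% higher, 0.307% lower). At 24 h 7 members passed (4 higher, 3 lower), against 0.863% of all genes (0.564% higher, 0.299% lower). The joint test of DMSO and all times up to 4 h called 7 members, against 1.33% of the 25255 genes tested there. Out of the 242 members, 1.24%, 2.89%, 0.826%, 1.65% and 2.89% were thus called from the earliest to the latest time.

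Libraries of the same replicate number shared a harvest, and with the replicate number as a block more members were called, most of them higher. At 0.5 h the block gave 13 members (11 higher, 2 lower), against 2.48% of all genes (1.12% higher, 1.36% lower). At 1 h it gave 29 (25 higher, 4 lower), against 3.25% (1.49% higher, 1.75% lower), and at 2 h 17 (13 higher, 4 lower), against 2.43% (1.3% higher, 1.13% lower). At 4 h it gave 31 (24 higher, 7 lower), against 2.49% (1.55% higher, 0.948% lower), and at 24 h 30 (23 higher, 7 lower), against 2.65% (1.43% higher, 1.22% lower). With the block, 44 members were called over the time course, against 4.6% of all genes. Every call made without the block was also made with it. Below, a value called only with the block is one that edgeR on all libraries did not call without it. Of these 97 calls, DESeq2 without a block made 24, and 8 were called by edgeR without the block once 1 replicate was left out. At any of the 5 time points 13 members were called without the block and 61 with it, against 2.43% and 7.89% of all genes, and 1 member, DGKB, was called at all 5 times without the block, joined by CPQ and PHACTR1 with it. All of these contrasts share the 4 DMSO libraries, so the time points are not independent of each other.

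**Figure D1:**
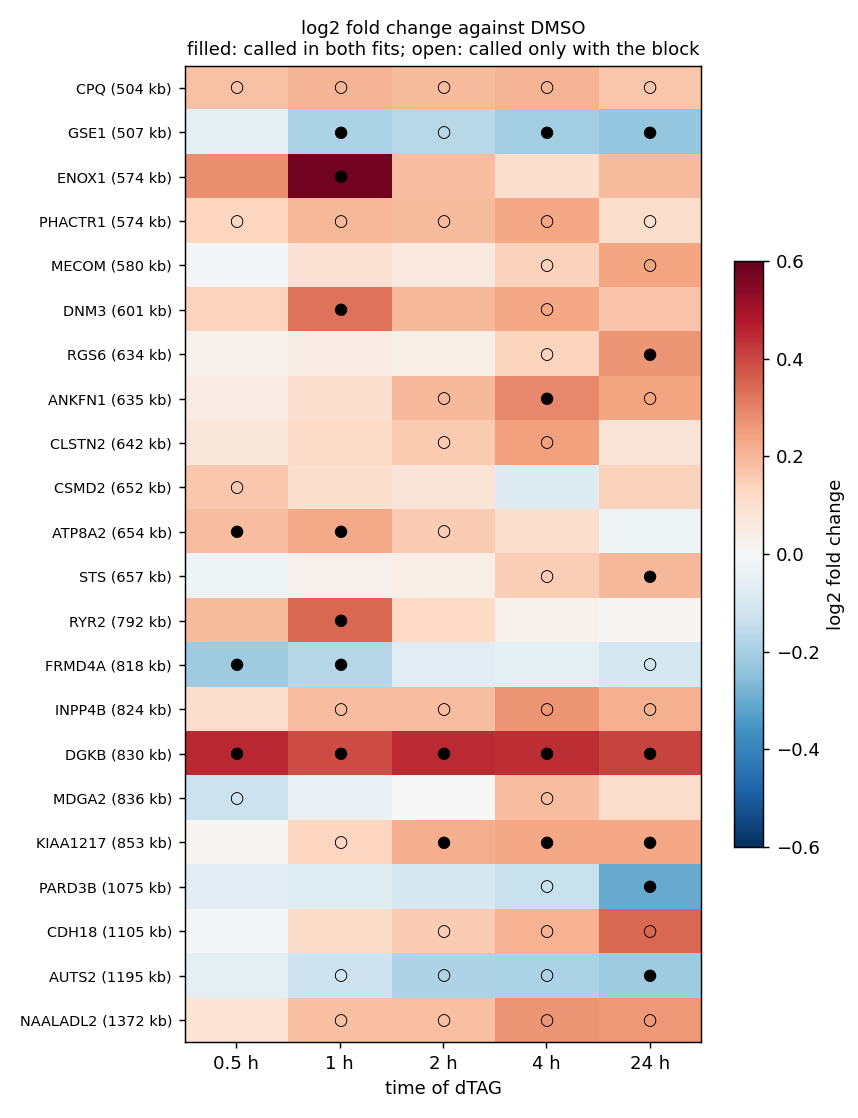
Log2 fold change against DMSO at each time (columns) of 22 named members (rows, sorted by span from 504 to 1372 kb), in red where higher and blue where lower. Filled circles mark calls in both fits and open circles mark edgeR calls made with the replicate block and not without it; DGKB is the row with a filled circle in all 5 columns.

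The members already called at 0.5 h were DGKB, FRMD4A and ATP8A2. DGKB encodes a diacylglycerol kinase, an enzyme that turns the second messenger diacylglycerol into phosphatidic acid. It spans 829.7 kb (chr7:14145049-14974777, minus strand) and was measured at 17.4, 16.5, 20.8 and 18.4 CPM in the DMSO libraries of replicates 1 to 4, and at 26.4, 24.7, 25.7 and 23.8 CPM at 0.5 h. Every library at 0.5, 2, 4 and 24 h exceeded the highest DMSO library, and at 1 h 1 library, replicate 2 at 20.5 CPM, lay inside the DMSO range. The log2 fold change was 0.45 ± 0.085 (SE) at 0.5 h (edgeR adjusted p = 0.016), followed by 0.39 ± 0.087, 0.45 ± 0.084, 0.44 ± 0.085 and 0.41 ± 0.090 from 1 to 24 h. It was higher than the same-numbered DMSO library in 19 of 19 comparisons. Its mean count was 248.7, or 0.30 counts per kb of span. Without the block its 0.5 h call was kept when replicate 3 was left out and lost when replicate 1, 2 or 4 was left out, and with the block all 4 leave-outs kept it.

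FRMD4A encodes a scaffold protein of the FERM family that acts in epithelial polarity. It spans 818.4 kb (chr10:13643706-14462142, minus strand). Its level in DMSO was 144, 152, 144 and 147 CPM, and all 0.5 h libraries, at 123, 131, 125 and 129 CPM, lay below that range. The 1 h libraries at 129, 133, 129 and 131 CPM were also all below it, and the 4 h libraries at 139, 148, 141 and 138 CPM overlapped it. FRMD4A fell by 0.21 ± 0.036 on the log2 scale at 0.5 h (edgeR adjusted p = 0.0071) and by 0.17 ± 0.036 at 1 h (p adjusted 0.026), and was -0.07 at 2 h, -0.05 at 4 h and -0.10 at 24 h, of which the 24 h value was called only with the block (adjusted p = 0.068). The difference between 4 h and 0.5 h was itself called, at 0.16 on the log2 scale, the 4 h level being the higher. Leaving out replicate 3 or 4 ended the 0.5 h call without the block, at values from -0.22 to -0.21 over the leave-outs.

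ATP8A2, a lipid flippase that moves phosphatidylserine across membranes, spans 653.9 kb (chr13:25371974-26025851, plus strand). It was measured at 99.5, 104, 107 and 99.8 CPM in DMSO, at 114, 114, 122 and 115 CPM at 0.5 h, at 121, 121, 121 and 118 CPM at 1 h, and at 100, 99.4 and 102 CPM at 24 h. The 0.5 h and 1 h libraries all lay above the DMSO range, and the 24 h libraries overlapped it, with replicate 3 at 99.4 CPM just below its lowest library. The log2 fold change was 0.18 ± 0.044 at 0.5 h (edgeR adjusted p = 0.098), 0.23 ± 0.044 at 1 h (adjusted p = 0.012), 0.15 at 2 h, called only with the block (adjusted p = 0.031), and -0.03 at 24 h, and the difference of 24 h from 0.5 h was called at -0.21. The 0.5 h call was lost without the block when any 1 of the 4 replicates was left out. The RefSeq and GENCODE starts of ATP8A2 are the same position.

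**Figure D2:**
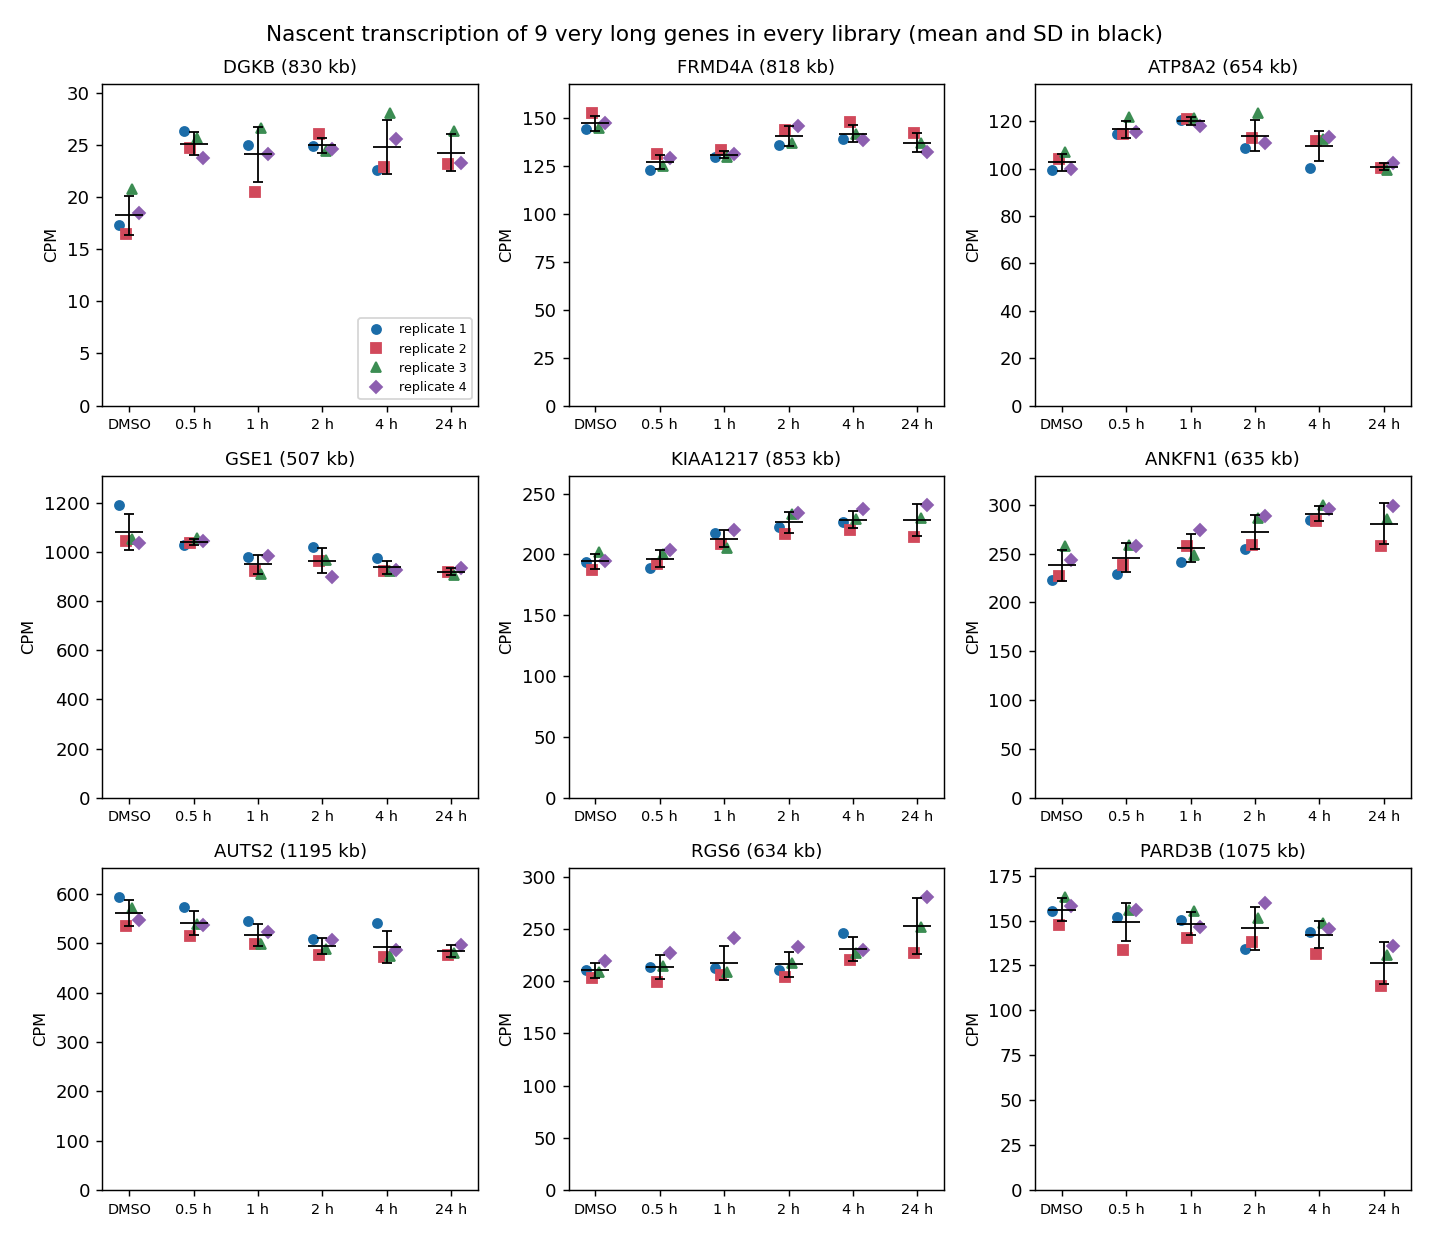
CPM (vertical axes from 0) of 9 members in the 23 libraries by time of dTAG, with 1 symbol per replicate number and the group mean and SD in black. DGKB lay at 16.5 to 20.8 CPM in DMSO and at 20.5 to 28.1 CPM in the dTAG libraries, KIAA1217 and ANKFN1 rose gradually, and AUTS2 and PARD3B were lowest at 24 h.

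A second set of members had no call at 0.5 h and was called later. KIAA1217, also called SKT, encodes a coiled-coil protein, and spans 853.1 kb (chr10:23694746-24547848, plus strand). Its DMSO libraries gave 194, 187, 202 and 194 CPM and its 0.5 h libraries 189, 192, 201 and 204 CPM, which overlap. By 2 h the libraries stood at 222, 217, 234 and 234 CPM, at 4 h at 227, 220, 229 and 238 CPM, and at 24 h at 215, 230 and 241 CPM, all above the DMSO range. Its log2 fold change was 0.01 ± 0.042 at 0.5 h, 0.13 ± 0.042 at 1 h (called only with the block, adjusted p = 0.028), 0.22 ± 0.042 at 2 h (edgeR adjusted p = 0.011), 0.23 ± 0.042 at 4 h (adjusted p = 0.0063) and 0.23 ± 0.045 at 24 h (adjusted p = 0.014). The 4 h against 0.5 h and 24 h against 0.5 h differences were both called, at 0.22. The calls at 2, 4 and 24 h were each lost without the block when replicate 3 or 4 was left out, and were kept with the block in all 4 leave-outs. Its canonical transcript is 338.7 kb, shorter than the gene.

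ANKFN1, an ankyrin-repeat and fibronectin-domain protein, spans 634.7 kb (chr17:55882301-56517016, plus strand). It went from 223, 228, 258 and 243 CPM in DMSO to 229, 238, 259 and 258 CPM at 0.5 h, and reached 285, 284, 300 and 296 CPM at 4 h. At 0.5 h the libraries overlapped the DMSO libraries and the 4 h libraries did not. The log2 fold change was 0.05, 0.10, 0.19, 0.29 and 0.24 at 0.5, 1, 2, 4 and 24 h, called without the block at 4 h (0.29 ± 0.059, edgeR adjusted p = 0.019) and with the block at 2, 4 and 24 h. The difference of 4 h from 0.5 h was called at 0.24. Its 4 h call without the block was kept when replicate 1 was left out and lost when replicate 2, 3 or 4 was left out. The RefSeq start of ANKFN1 lies 271.2 kb downstream of the outermost GENCODE start.

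GSE1, a coiled-coil protein of a corepressor complex, has the span of 506.7 kb (chr16:85169525-85676204, plus strand) but a canonical transcript of 62.9 kb, and at 20.1 counts per kb it was among the densely read members. DMSO gave 1190, 1046, 1052 and 1036 CPM, the 0.5 h libraries 1028, 1036, 1057 and 1045 CPM, and the 1 h libraries 978, 922, 911 and 984 CPM. The DMSO library of replicate 1 stood above the other 3, and the 1 h libraries lay below all 4. GSE1 had log2 fold changes of -0.05 and -0.17 at 0.5 and 2 h, and it fell by 0.19 ± 0.046 at 1 h (edgeR adjusted p = 0.059), by 0.21 ± 0.046 at 4 h (p adjusted 0.036) and by 0.23 ± 0.050 at 24 h (p adjusted 0.027). The 2 h value was called only with the block (adjusted p = 0.010). Without the block the 4 h and 24 h calls were kept when replicate 1 was left out and lost when replicate 2, 3 or 4 was, and the 1 h call was lost in all 4 leave-outs. With the block all 4 leave-outs kept these calls.

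AUTS2, a gene with roles in neuronal development that acts with a Polycomb complex, is among the longest members with a delayed fall, at 1195.2 kb (chr7:69598296-70793506, plus strand). Levels of 594, 535, 572 and 547 CPM in DMSO stood above all 3 libraries of 24 h, at 476, 481 and 498 CPM. The log2 fold change was -0.05, -0.12, -0.18 and -0.19 from 0.5 to 4 h, and it fell by 0.21 ± 0.052 at 24 h (edgeR adjusted p = 0.074). The 1, 2 and 4 h values were called by edgeR with the block and not without it, with adjusted p = 0.019 at 1 h and 0.00044 at 2 h. DESeq2 called the 2 and 4 h values, and edgeR without the block called the 4 h value when replicate 1 was left out. It was lower than its same-numbered DMSO library in 19 of 19 comparisons. Without the block the 24 h call was kept without replicate 1 and lost without replicate 2, 3 or 4.

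At 24 h 3 further members were called without the block that had no such call earlier: RGS6, PARD3B and STS. RGS6, a regulator of G-protein signalling, spans 634.1 kb and gave 211, 203, 209 and 220 CPM in DMSO and 227, 252 and 280 CPM at 24 h, a rise of 0.27 ± 0.067 on the log2 scale (edgeR adjusted p = 0.086). All 24 h libraries lay above the DMSO range, and the 24 h call was lost without the block on leaving out replicate 1, 3 or 4. STS, the steroid sulfatase that frees estrogen and androgen precursors from their sulfates, spans 657.1 kb on chromosome X with a canonical transcript of 206.9 kb. It gave 158, 154, 164 and 150 CPM in DMSO and 145, 146, 164 and 159 CPM at 0.5 h. By 4 h the level was 174, 171, 174 and 174 CPM, and the 24 h libraries were at 172, 180 and 186 CPM, with no overlap between DMSO and either late time. Its log2 fold change was 0.15 at 4 h, called only with the block (adjusted p = 0.053), and 0.19 ± 0.048 at 24 h (edgeR adjusted p = 0.076), a call that no leave-out kept without the block. PARD3B, a cell polarity protein, spans 1074.7 kb (chr2:204545475-205620162, plus strand) and gave 155, 148, 163 and 158 CPM in DMSO against 113, 131 and 136 CPM at 24 h, a fall that was larger than at any earlier time. Its log2 fold change was -0.06, -0.07, -0.10 and -0.13 at 0.5, 1, 2 and 4 h, the last called only with the block (adjusted p = 0.090), and it fell by 0.30 ± 0.070 at 24 h (edgeR adjusted p = 0.055). Without the block this call was kept without replicate 1 and lost without replicate 2, 3 or 4.

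The 3 members called without the block only at 1 h had few reads. DNM3, a dynamin that pinches off membrane vesicles, gave 20.8, 20.6, 26.7 and 26.3 CPM in DMSO and 31.4, 28.9, 29.5 and 29.2 CPM at 1 h, and no library overlapped (log2 fold change 0.32 ± 0.076, edgeR adjusted p = 0.045). With the block it was also called at 4 h, at 0.22 (adjusted p = 0.092). ENOX1, an electron transfer protein of the cell surface, gave 9.11, 7.68, 8.88 and 10.9 CPM in DMSO and 11.9, 10.5, 14.7 and 17.9 CPM at 1 h, where replicate 2 overlapped the DMSO range (0.58 ± 0.152, adjusted p = 0.089). RYR2, a calcium release channel, gave 10.4, 12.3, 12.5 and 11.99 CPM in DMSO and 15.5, 12.7, 15.7 and 16.6 CPM at 1 h (0.35 ± 0.090, adjusted p = 0.097). Their mean densities were 0.466, 0.194 and 0.168 counts per kb. DNM3 and ENOX1 were not called without the block in any leave-out, and RYR2 was called in 1 of 4, without replicate 2.

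Several densely read members were called as higher with the harvest in the model and not by edgeR without it. INPP4B, an inositol polyphosphate phosphatase that limits signalling from phosphoinositide 3-kinase, had 25.3 counts per kb. It gave 1777, 1579, 1936 and 1822 CPM in DMSO and 2145, 2013, 2207 and 2177 CPM at 4 h, and each 4 h library exceeded its own replicate's DMSO library as well as the highest DMSO library. Its log2 fold change with the block was 0.11, 0.19 and 0.18 up to 2 h, then 0.27 ± 0.032 at 4 h (adjusted p = 2.9e-05) and 0.20 at 24 h, called from 1 h onward. Without the block its 4 h adjusted p was 0.16 with edgeR, and DESeq2 called it. PHACTR1, a regulator of actin and of protein phosphatase 1 and the most densely read member at 49.8 counts per kb, had 0.13 at 0.5 h, 0.20 at 1 h and 0.23 ± 0.029 at 4 h with the block (adjusted p = 0.024, 0.00035 and 4.7e-05). Its 4 h value was also called by DESeq2, and by edgeR without the block when replicate 2 was left out. It was higher than its same-numbered DMSO library in 19 of 19 comparisons, as were INPP4B, NAALADL2 and CPQ.

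NCAM2, a neural cell adhesion molecule, gave 1930, 1563, 2136 and 1953 CPM in DMSO, 1937, 1569, 2122 and 2089 CPM at 0.5 h, and by 4 h stood at 2361, 1975, 2319 and 2333 CPM. The replicate 2 library was the lowest in all 3 of these groups, and the DMSO and 4 h ranges overlapped. With the block its log2 fold change was 0.02 at 0.5 h (adjusted p = 0.92) and 0.25 ± 0.044 at 4 h (adjusted p = 0.0021). NAALADL2, a homolog of a glutamate carboxypeptidase and at 1372.0 kb the longest of these, had 0.08 at 0.5 h (adjusted p = 0.41), 0.18 at 1 h (adjusted p = 0.013) and 0.27 ± 0.039 at 4 h (adjusted p = 0.00022). The RefSeq start of NAALADL2 lies 420.8 kb downstream of the outermost GENCODE start. CPQ, a secreted peptidase of 504.4 kb, had 0.18 ± 0.030 already at 0.5 h (adjusted p = 0.0027) and between 0.16 and 0.21 thereafter, with no value after 0.5 h above 0.21. CDH18, a cadherin of 1104.6 kb, had -0.01 at 0.5 h, 0.21 at 4 h (adjusted p = 0.0046) and 0.34 ± 0.042 at 24 h (adjusted p = 5.0e-05). MDGA2, a membrane protein that blocks neuroligin binding, changed sign, with -0.13 at 0.5 h (adjusted p = 0.070) and 0.19 at 4 h (adjusted p = 0.0035). With the block, 1 of 4 leave-outs kept its 0.5 h call and 3 kept its 4 h call. CLSTN2, a calsyntenin of the synapse, had 0.25 at 4 h (adjusted p = 0.00063), and MECOM, a zinc-finger transcription factor, had 0.26 at 24 h (adjusted p = 0.00081).

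The levels at late and early times were compared directly, in either direction, so a call can be a later change or a return toward DMSO. The difference between 4 h and 0.5 h was called for 7 members, against 0.871% of all genes, and that between 24 h and 0.5 h for 10 members, against 1.99% of all genes. With the block the counts were 40 (against 4.15% of all genes) and 34 (against 6.34%). Among members with no call against DMSO in the fit without the block, named here after their values were seen, MECOM and CDH18 rose from 0.5 h to 24 h by 0.25 and 0.36 on the log2 scale, and the transcription factors RUNX1 and ZFPM2 and the adhesion molecule DSCAM fell by 0.23, 0.31 and 0.25. The CPM of RUNX1 was 361, 328, 355 and 325 in DMSO, 399, 353, 401 and 382 at 0.5 h and 320, 325 and 340 at 24 h. The 0.5 h value of RUNX1 was 0.16 on the log2 scale, called with the block (adjusted p = 0.0066) and by DESeq2.

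The travel of polymerase was set at an assumed 2 kb per min, which puts the front 60, 120, 240, 480 and 2880 kb into a gene at the 5 times. No member's span was within reach by 4 h, and all 242 were by 24 h. The front would have covered a median of 7.82%, 15.6%, 31.3% and 62.5% of a member's span at the 4 times up to 4 h. At 1 kb per min 221 members would be within reach at 24 h, and at 3 and 4 kb per min 101 and 165 members would be within reach at 4 h. Over the canonical transcript, 2, 6, 11 and 41 members were within reach at 0.5, 1, 2 and 4 h at 2 kb per min.

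For the 7 members called at 24 h, the change at each earlier time was expressed as a percent of the 24 h change on the linear CPM scale. The median was 22.8%, 54.1%, 73.1% and 88.8% from 0.5 to 4 h, whereas the median share of the span within reach was 7.23%, 14.5%, 28.9% and 57.9%. Over the canonical transcripts, the median share within reach was 9.46%, 18.9%, 37.8% and 75.7%. The observed share stood above the share of span within reach in 4 of 7 members at 0.5 h and in 5 of 7 at 1, 2 and 4 h. These numbers hold for the outermost span only. The canonical transcripts of GSE1, KIAA1217 and STS are much shorter, so more of them would be within reach at each time. DGKB was at 113.0% of its 24 h change by 0.5 h with 7.23% of its span within reach. The 24 h call of DGKB was kept in 0 of 4 leave-outs without the block and in all 4 with it. KIAA1217 moved from 5.52% at 0.5 h, close to the 7.03% of its span within reach, to 54.1% at 1 h and 94.8% at 2 h, where 28.1% was within reach. AUTS2 was at 26.6%, 59.0%, 86.7% and 88.8% at 0.5, 1, 2 and 4 h against 5.02%, 10.0%, 20.1% and 40.2% of its span.

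RGS6 and STS stood mostly below the share of span within reach. RGS6 was at 7.13%, 15.8%, 13.0% and 47.2% of its 24 h change against 9.46%, 18.9%, 37.8% and 75.7% of its span within reach. STS was at -13.2%, 12.4% and 18.5% at 0.5, 1 and 2 h against 9.13%, 18.3% and 36.5% of its span, and at 74.6% against 73.0% at 4 h. PARD3B stood above that share at all 4 times, at 22.8%, 26.6%, 34.4% and 46.9% against 5.58%, 11.2%, 22.3% and 44.7%. With the block, the medians over 30 members called at 24 h were 22.01%, 47.9%, 43.9% and 64.1%, against 8.17%, 16.3%, 32.7% and 65.4% of span. Over their canonical transcripts the median share within reach was 9.94%, 19.9%, 39.8% and 79.5%. The observed share was above the share of span within reach in 20, 24, 21 and 17 of the 30. For single genes with small changes these shares carry wide errors, and they rest on contrasts that share the DMSO libraries, so they are given without a test.

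**Figure D3:**
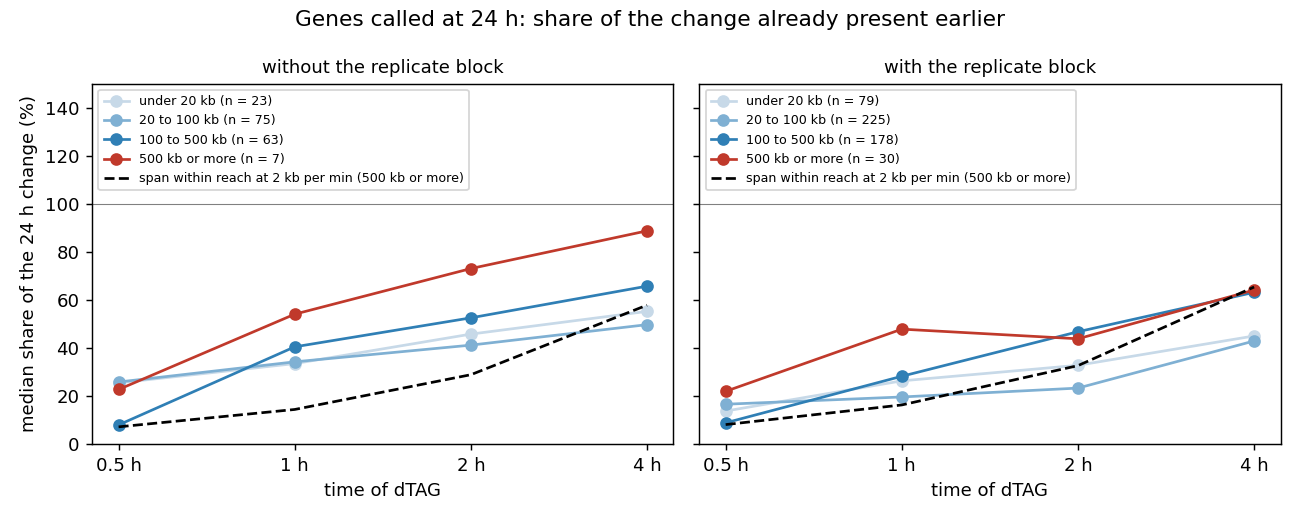
Median percent of the 24 h change (vertical axis) present at 0.5, 1, 2 and 4 h for protein-coding genes called at 24 h in 4 classes of span, without (left) and with (right) the replicate block; the dashed line is the median percent of span within reach of polymerase at 2 kb per min for the very long genes. The very long genes (red) stood at 22.8% at 0.5 h and 88.8% at 4 h on the left, and at 22.01% and 64.1% on the right.

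The same measure was taken in shorter protein-coding genes with a mean count of at least 100. Among genes called at 24 h without the block, the median share present at 0.5 h was 25.5% under 20 kb (23 genes), 25.9% at 20 to 100 kb (75 genes) and 8.04% at 100 to 500 kb (63 genes), beside the 22.8% of the 7 very long genes. Among genes called at 4 h with the block, the share present at 0.5 h was 56.6% under 20 kb (79 genes), 42.6% at 20 to 100 kb (179 genes), 24.1% at 100 to 500 kb (196 genes) and 14.9% at 500 kb or more (31 genes). By 1 h the same genes stood at 70.3%, 66.6%, 56.8% and 53.6%. Without the block the 0.5 h values of genes called at 4 h were 31.9%, 44.1%, 27.4% and 21.2%, the last over 4 members. A lower share at 0.5 h with greater span was therefore seen for genes called at 4 h with the block and not for genes called at 24 h, and it was not tested.

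A count per gene holds no position, so genes annotated inside a called member on its own strand were used as points along it. Distances run from the outermost GENCODE start of the host. MAGI1-IT1, 125.2 kb into the scaffold gene MAGI1, which at 2 kb per min is reached after 62.6 min, had log2 fold changes of 0.02, 0.18, 0.17 and 0.25 at 0.5, 1, 2 and 4 h. Its 4 h value was called only with the block (adjusted p = 0.056), and its host had 0.04, 0.12, 0.09 and 0.24. Inside GSE1, the gene ENSG00000287787 at 98.7 kb had -0.29, -0.23, -0.31 and -0.38 at the same times, called at 2 and 4 h with the block (adjusted p = 0.073 and 0.029), and ENSG00000260417 at 424.5 kb had 0.00, -0.02, -0.12 and -0.12, and -0.34 at 24 h with no call. Both lie before the RefSeq start of GSE1, at 443.8 kb, so they cannot show a front that leaves that start. In INPP4B, RPL5P13 at 560.2 kb had 0.14, -0.02, 0.17 and 0.38, also with no call. It would be reached after 280.1 min from the outermost start, but sooner from the RefSeq start, 441.6 kb downstream. RNU1-11P, 497.8 kb into PHACTR1, had 0.15, 0.26, 0.09 and 0.21 with no call, before the front would reach it. ENSG00000242795, 45.0 kb into MECOM, had -0.16, 0.02, 0.01 and -0.07, and 0.06 at 24 h, where its host had 0.24. NALF1-IT1, SPTSSA and ENSG00000286579, inside NALF1, EGLN3 and SUMF1, had no call either. These 9 nested genes averaged 55.1 to 736.3 counts, and reads in them are counted in the host as well. SPTSSA, RNU1-11P and RPL5P13 were read at 10.2, 10.0 and 3.07 times the density of their hosts, so their counts need not follow the host.

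Calls were compared with those in shorter protein-coding genes of the same count minimum. With the block at 4 h, 2.34% of 3372 genes under 20 kb were called, 3.28% of 5456 genes at 20 to 100 kb, 8.31% of 2358 genes at 100 to 500 kb and 12.8% of the very long genes. Without the block the same shares were 0.83%, 1.19%, 2.71% and 1.65%. At the other times the very long genes were set against genes of 100 to 500 kb. With the block 5.37% against 5.3% were called at 0.5 h and 7.02% against 7.72% at 2 h. At 1 h and 24 h these shares were 11.98% against 7.85% and 12.4% against 7.55%. Without the block they were 1.24% against 0.594%, 2.89% against 2.8%, 0.826% against 2.16% and 2.89% against 2.67% at 0.5, 1, 2 and 24 h. Whether the shares differ was not tested. The median mean counts of the 4 classes were 258.1, 490.5, 919.9 and 665.4, so the classes also differed in depth, and the part of depth in the shares was not tested. With a mean count minimum of 500, the shares with the block at 4 h were 6.57%, 4.12%, 8.65% and 21.5%.

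**Figure D4:**
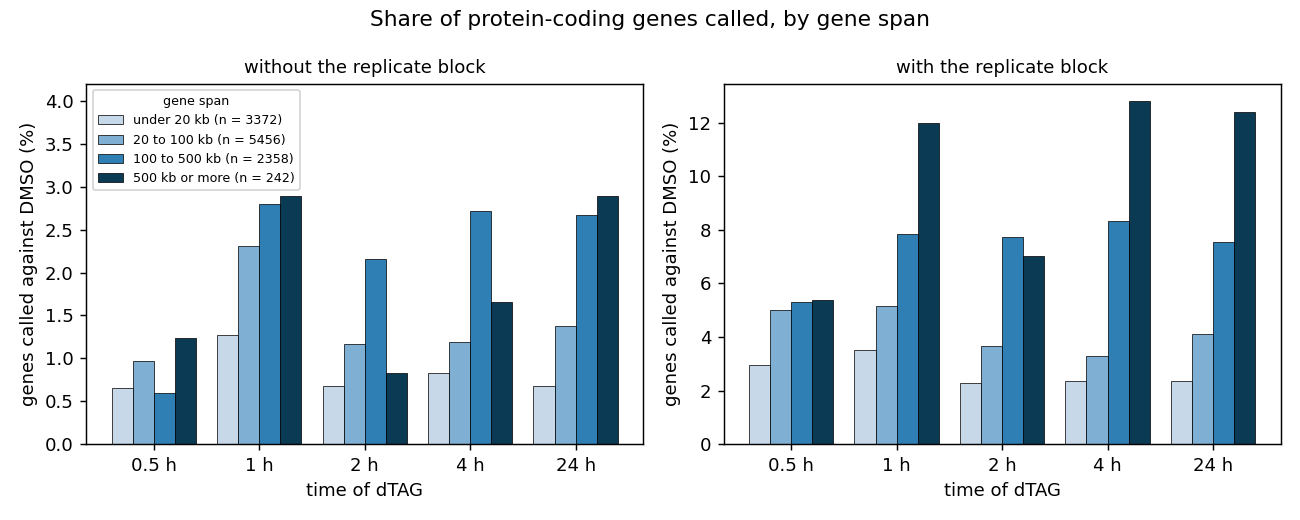
Percent of protein-coding genes called against DMSO (vertical axes from 0, on different scales) by time of dTAG and span, without (left) and with (right) the replicate block. Very long genes are the darkest bars, at 1.65% on the left and 12.8% on the right at 4 h.

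The members were also split by read density. The 61 members of the lowest quartile had 0.0987 to 0.189 counts per kb, and the 61 of the highest quartile had 2.97 to 49.8. In the lowest quartile the median log2 fold change was 0.05, 0.19, 0.03, 0.12 and 0.01 from the earliest to the latest time, with 55 of 61 values above 0 at 1 h, and 1 member, RYR2, was called at 1 h. In the highest quartile the medians were 0.00, 0.05, 0.01, 0.04 and 0.04, with 49 of 61 values above 0 at 1 h and 47 at 4 h. Of all 242 members, 191 had values above 0 at 1 h and 184 at 4 h. With scaling by total counts only, these numbers were 166 and 143. Over all genes tested the median was 0.01, 0.01, 0.00, 0.01 and 0.00. The summed CPM of the lowest quartile was 838 to 934 over the DMSO libraries and 916 to 1098 over the 1 h libraries, which also had the lowest median library total, 6940737 counts, against 8519259 in DMSO. Whether depth or reads from outside engaged transcription had a part in this was not tested.

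**Figure D5:**
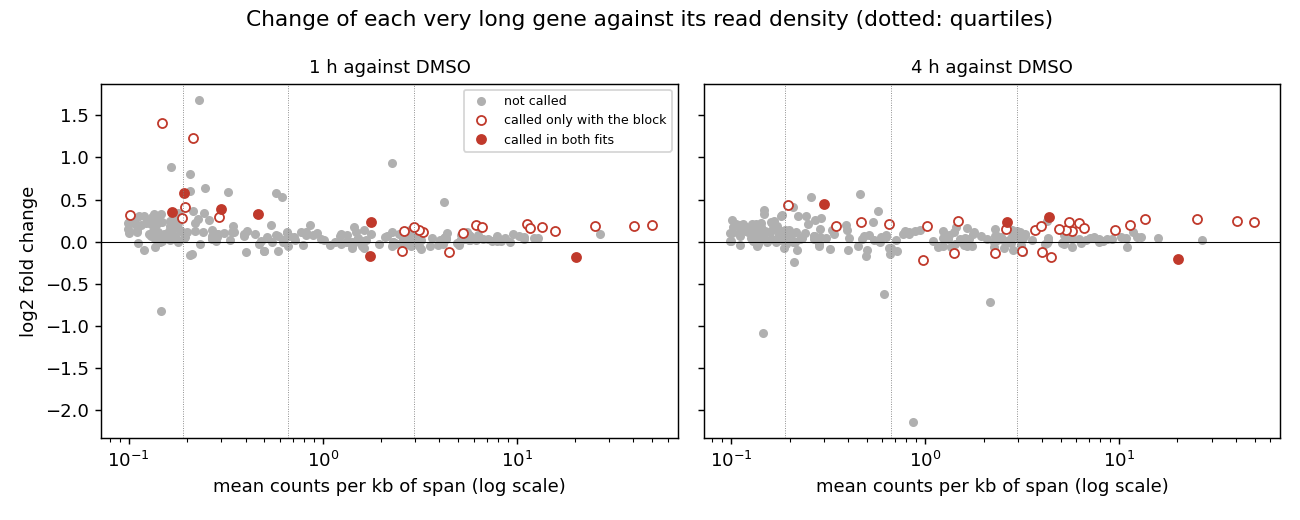
Log2 fold change against DMSO at 1 h (left) and 4 h (right) of each of the 242 members against its mean counts per kb of span (log axis), with quartiles dotted. At 1 h the lowest quartile centred on 0.19 and the highest on 0.05, and called members with over 10 counts per kb lay close to 0.2 or -0.2.

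A few members varied far more between libraries than the other members did. KAZN, a cytoskeletal protein of the cell periphery, gave 737, 51.4, 127 and 47.8 CPM in the DMSO libraries and 99.6, 57.4, 48.0 and 902 CPM at 1 h. TMEM132D, a transmembrane protein, gave 502, 739, 48.0 and 65.9 CPM in DMSO, and GRIK2, a glutamate receptor subunit, ran from 17.4 to 533 CPM over the 23 libraries. The high libraries were scattered over groups and replicates. The highest library was at least 3 times the lowest in 21 of 242 members (8.68%), against 1.39%, 0.605% and 1.61% of genes in the 3 shorter classes, after adding 0.5 CPM to each value. None of KAZN, TMEM132D and GRIK2 was called at a time point by edgeR with or without the block. Other widely varying members were called with the block: ALK and IL1RAPL1 at 1 h and LRMDA at 24 h. Their highest library was 8.94, 6.61 and 6.49 times the lowest. For ALK it was replicate 1 at 1 h, at 63.5 CPM against a median of 8.94 CPM. With the block, these calls were kept in 0, 1 and 2 of 4 leave-outs.

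By role, and against the 2.43% of all genes called at any time without the block and 7.89% with it, 0 of 48 adhesion molecules and synapse organisers were called by edgeR at any of the 5 times, with 18 at an unadjusted p under 0.05, 5 called by DESeq2 and 10 by edgeR with the block. These had the longest median span, 1117.4 kb, and the lowest median density, 0.177 counts per kb. Of 25 transcription factors and chromatin regulators 1 was called (AUTS2), and 10 with the block. Of 35 scaffold, cytoskeleton and trafficking proteins 3 were called, and 10 with the block. Of 22 signalling enzymes, 21 other enzymes and 15 channels and receptors 1 each was called, and 5, 5 and 1 with the block. Of the 76 members in no list 6 were called, and 20 with the block.

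The fragile-site genes FHIT and WWOX, both tumour suppressors, gave no call in either fit. They had log2 fold changes at 4 h of 0.02 ± 0.109 and 0.06 ± 0.078. The dystrophin gene DMD, at 2241.9 kb, had 0.13 ± 0.093, and LRP1B, a lipoprotein receptor, had 0.10 ± 0.127. Of the 3 longest members, RBFOX1, a splicing factor of 2473.5 kb, had 0.13 ± 0.036 at 0.5 h and 0.16, 0.18 and 0.21 at 2, 4 and 24 h with the block, with adjusted p = 0.081, 0.020, 0.0078 and 0.0039. Without the block edgeR called none of these on all libraries, but DESeq2 called the 4 and 24 h values, as did edgeR without replicate 1. CNTNAP2 had 0.11 ± 0.099 at 4 h and PTPRD 0.17 ± 0.104, with no call there. PTPRD was called at 1 h with the block only, at 0.33 (adjusted p = 0.091), a call that no leave-out kept.

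Calls were also counted among the factors that carry polymerase through long genes. Of 45 elongation factors and topoisomerases tested, TOP2A, the topoisomerase of dividing cells, was the 1 called without the block. It fell by 0.36 ± 0.068 on the log2 scale at 24 h (edgeR adjusted p = 0.010), where 0.863% of all genes were called. With the block, TOP1, which relaxes supercoils ahead of polymerase, fell by 0.13 ± 0.035 at 0.5 h (p adjusted 0.073), and MLLT3, a subunit of the super elongation complex, fell by 0.18 ± 0.040 at 1 h (p adjusted 0.020). At these times 2.48% and 3.25% of all genes were called. For 4 h against 0.5 h the block called TOP1 (0.13), TOP2B and SETD2 as higher and CCNK as lower, against 4.15% of all genes. For 24 h against 0.5 h it called 3 as lower and 0 as higher, against 6.34%.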

How the data were processed

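PRO-seq libraries of 1 T47D clone were analysed, 23 in all. The authors removed adapters (cutadapt 1.8.1), aligned to hg38 (Bowtie2 2.4.4), handled alignments with SAMtools 1.9, collapsed molecular identifiers and discarded ribosomal DNA, and counted reads per gene with bedtools. The deposited values are these raw counts per gene, without normalization. The annotation and the strand setting are not given in the sources used here. Identifiers were matched to GENCODE release 44 (60463 of 60605).

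Counts were fitted in R 4.3.3 with edgeR 4.0.16 (TMM, filterByExpr with minimum count 10 and total 15, quasi-likelihood F-tests, two-sided), with Benjamini-Hochberg adjustment over all 26057 kept genes, or over 25255 for the time course. An adjusted p under 0.1 is a call. Standard errors equal the absolute log2 fold change over the square root of F. DESeq2 1.42.0, other scalings, no filter, leave-outs of each replicate and a replicate block were run as alternatives. The members and lists were chosen with earlier results of these data known.

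The labels say that replicates were treated and collected at different times of 1 day, so same-numbered libraries share a harvest. Their deviations from group means correlated at a mean r of 0.287 over 55 pairs, against -0.0825 for other numbers. By replicate the mean r was uneven, at 0.578, 0.0896, 0.434 and 0.141 for replicates 1 to 4. Replicates are cultures of 1 clone, so p-values measure the spread between these cultures. On simulated counts for 4 h against DMSO (25761 genes), 82% of 1.5-fold and 34% of 1.25-fold increases were recovered. Of the 139 calls made there, 19 were of genes that had not been changed. The simulated libraries were drawn without a shared harvest, unlike the data. Named genes were those called without the block, 8 called only with it, the longest and most read members, and 8 preset genes, and some results are not reported here. Single values carry counting error, which identifiers reduce to molecules, and also spread between libraries beyond it. The common dispersion, which measures that further spread, was 0.0249 without the block and 0.00489 with it.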

Additional observations from a re-analysis of the deposited data

Results flagged for a closer look

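Among 110 groups of 4 libraries, 6 held a library far from the other 3 by Dixon's ratio of gap to range (critical value 0.829), where chance flags about 5%. The ratios were 0.885 for ATP8A2 at 0.5 h (replicate 3 highest) and 0.875 at 4 h (replicate 1 lowest), 0.896 for GSE1 in DMSO (replicate 1 highest) and 0.938 at 4 h (replicate 1 highest), 0.898 for STS at 4 h (replicate 2 lowest) and 0.897 for CSMD2 at 4 h (replicate 3 lowest).

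The later effect differed from the 0.5 h effect, by the edgeR contrast of the times themselves, in 16 cases reported here. From 0.5 h to 4 h the differences were -0.24 for CSMD2, 0.22 for KIAA1217, 0.16 for FRMD4A, -0.21 for DSCAM, 0.24 for ANKFN1 and 0.18 for STS on the log2 scale. From 0.5 h to 24 h they were 0.22 for KIAA1217, -0.25 for DSCAM, 0.22 for STS, -0.21 for ATP8A2, -0.23 for RUNX1, -0.31 for ZFPM2, 0.25 for MECOM, 0.25 for RGS6, -0.18 for GSE1 and 0.36 for CDH18. CSMD2 had 0.16 at 0.5 h and -0.08 at 4 h against DMSO, and its 4 h libraries gave 37.4, 37.8, 34.8 and 37.7 CPM against 43.97, 41.6, 43.99 and 44.5 CPM at 0.5 h.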

How the results depend on the processing

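The counts of called members depended on the model. In the order 0.5, 1, 2, 4 and 24 h, time course, 4 h against 0.5 h and 24 h against 0.5 h, the replicate block (which pairs libraries of a harvest) gave 13, 29, 17, 31, 30, 44, 40 and 34 in place of 3, 7, 2, 4, 7, 7, 7 and 10. In the same order DESeq2 gave 5, 7, 6, 13, 18, 16, 14 and 17, scaling by total counts only gave 0, 1, 2, 3, 4, 1, 0 and 2, and no filter gave 1, 1, 2, 4, 3, 3, 1 and 1. Fitting DMSO with 1 time point gave 0, 0, 1, 0 and 1. The share of all genes called moved too. It ran over the tests from 1.00% to 3.04% with DESeq2 and from 0.107% to 0.545% with total counts only. It ran from 0.0837% to 0.320% with no filter, and from 0.00851% to 0.442% with 1 time point. Where edgeR gave 0 under these settings, 12 to 39 members had an unadjusted p under 0.05.

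Leaving out each replicate in turn gave ranges of 0 to 1, 0 to 3, 0 to 2, 0 to 7, 0 to 6, 0 to 5, 0 to 3 and 0 to 9 without the block, with 0 in every test without replicate 4 (9 to 29 at an unadjusted p under 0.05). With the block they were 3 to 12, 13 to 24, 9 to 19, 15 to 29, 13 to 38, 16 to 50, 9 to 34 and 12 to 39 (11 at 2 h without replicate 2 or 4, and 20 over the time course without replicate 2). In these leave-outs the share of all genes called ran from 0.0499% to 1.78% without the block and from 0.415% to 7.16% with it. Of the 23 calls against DMSO without the block, 18 were kept in all 4 leave-outs with the block, 7 were called in no leave-out without it and 22 were called by DESeq2. Of the 120 calls with the block, 39 were kept in all 4 leave-outs and 15 in none. DNM3 at 4 h was among those kept in none. Calls kept in 1 of 4 included MDGA2, PHACTR1 and RBFOX1 at 0.5 h, KIAA1217 at 1 h and ATP8A2 and RBFOX1 at 2 h. They also included STS and PARD3B at 4 h and FRMD4A at 24 h.

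With a mean count minimum of 500, 4.62% of members were called at 24 h. The median share of the 24 h change moved to 43.9% at 2 h and 64.1% at 4 h with the block, and taking 4 h as the full change gave 87.8% at 2 h. Of the named genes' values, 2 changed sign: PDE4D at 24 h ran from -0.30 without replicate 1 to 0.035 without replicate 2, and was 0.056 without replicate 2 with the block, with no call. The cause was not tested for any of these.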
